A study of Homo sapiens with 9 samples.

Results

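BCMA (the gene TNFRSF17), TACI (TNFRSF13B) and the BAFF receptor (TNFRSF13C) are receptors of the TNF receptor superfamily on B-lineage cells, and BAFF (TNFSF13B) and APRIL (TNFSF13) are their ligands. These 5 genes were taken by symbol from the 26816 genes of the deposited read count table, and all 5 were in it. RNA came from OCI-Ly1 cells, which derive from a human germinal-centre-type diffuse large B-cell lymphoma and were grown in IMDM medium with serum and antibiotics. The cells carried an shRNA against KDM1A in the pLKO1 vector, named sh68 or sh72 in the table, or a non-targeting control shRNA (shSCR), and all groups were selected with puromycin. KDM1A encodes LSD1, a demethylase that removes methyl groups from histone H3 lysine 4 and works with the corepressor CoREST and with DNA-binding partners such as GFI1. There were 3 libraries per group, called biological triplicates in the series' design. The sample titles number the LSD1 shRNAs rather than naming them, and no label ties a number to sh68 or sh72, so the names of the table's columns are used. All of this is 1 cell line, and its cells all carried a vector.

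BAFF and APRIL are trimeric ligands that keep B cells alive. BAFF binds all 3 receptors, and the BAFF receptor binds no other known ligand of this family, whereas APRIL binds BCMA and TACI. In healthy B cells the BAFF receptor is the survival receptor of mature B cells, and BCMA appears as cells become plasmablasts and plasma cells and is a therapeutic target in myeloma. The receptors signal through TRAF adaptors, and the BAFF receptor in particular spares the kinase NIK (MAP3K14) from TRAF3-directed breakdown, which lets NFKB2 be processed and paired with RELB. BCMA is cut from the cell surface by gamma-secretase, TACI is shed by ADAM10, furin cleaves the ligands, and APRIL docks on heparan sulfate proteoglycans such as syndecan-1 (SDC1).

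Counted reads per library ran from 32230566 to 35270849 for sh68 and from 29857865 to 34592653 for sh72, against 29506767 to 32835510 for shSCR. Levels below are in CPM after TMM scaling, that is, counts relative to the reads counted in the library, and differences are log2 fold changes with SE from 1 edgeR quasi-likelihood fit to all 9 libraries, adjusted by the method of Benjamini and Hochberg over 15725 genes; a gene was called changed at an adjusted p below 0.05. KDM1A itself had 761, 847 and 910 reads in the sh68 libraries and 654, 719 and 638 in the sh72 libraries, against 3915, 3463 and 3850 in shSCR libraries, so that 20.2% and 17.2% of the shSCR level were left. The share of tested genes called was 55.5% with sh68, 51% with sh72, 52.3% for the mean of both and 56.2% between the 2 shRNAs, so a call of a single gene was common in these data. All 6 markers of B cells listed, among them MS4A1, CD79A and PAX5, were detected, with summed levels of 4125 to 4249 CPM in sh68 libraries and 2606 to 2773 in sh72 libraries, against 4157 to 4295 in shSCR libraries.

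Of the 5 genes, 4 passed the filter on low counts and were tested. The BAFF receptor gene TNFRSF13C and the BAFF gene TNFSF13B fell with both LSD1 shRNAs, to between 49.8% and 58% of the shSCR level. The BCMA gene TNFRSF17 rose 2.73-fold with sh68 and did not pass with sh72, and the 2 shRNAs differed for it. TNFSF13 (APRIL) rose with sh68 and did not pass with sh72, and the difference between the shRNAs just missed the threshold. All 4 tested genes were thus called with sh68 (2 higher and 2 lower, where 27.4% and 28.1% of all tested genes were called higher and lower) and 2 with sh72 (both lower, against 26.3% of all tested genes). On the mean of both shRNAs all 4 were called, 2 higher and 2 lower, where 52.3% of all tested genes were called, 24.9% higher and 27.5% lower. These are counts over 4 genes and are read only beside those shares. Both contrasts use the same 3 shSCR libraries, so their values are not independent, and in bulk RNA fewer cells with a transcript and less of it per cell cannot be told apart.

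**Figure D1:**
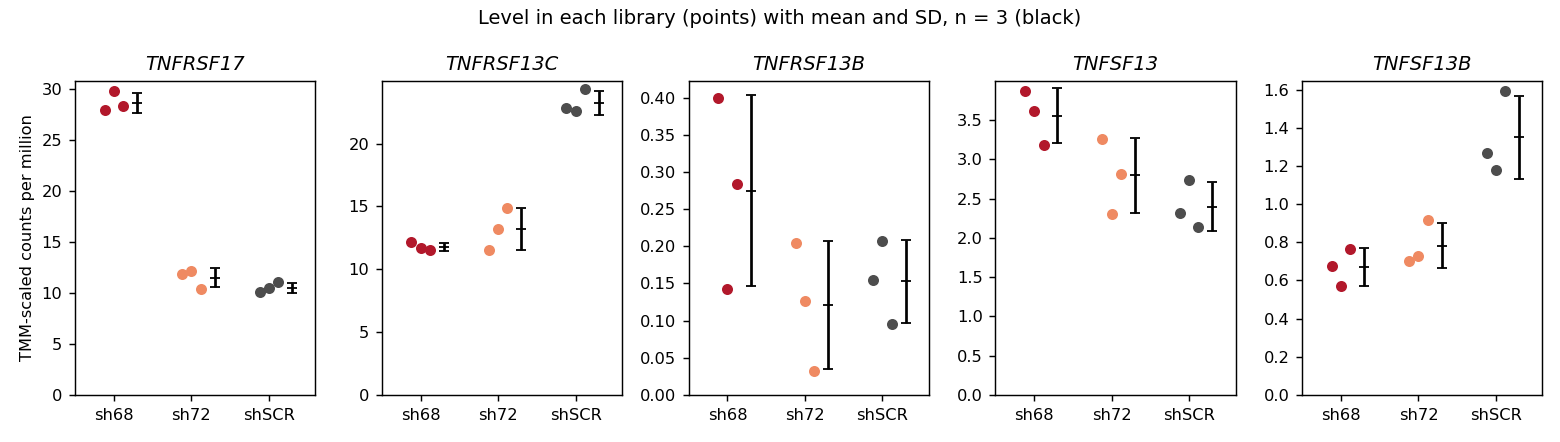
TMM-scaled CPM of the 5 genes in each of the 9 libraries, with the mean and SD of each group of 3 beside the points and a separate linear axis per gene. TNFRSF17 stands apart in the sh68 libraries (28 to 29.8), TNFRSF13C and TNFSF13B are lower in all sh68 and sh72 libraries than in any shSCR library, and TNFRSF13B is below 0.5 throughout.

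The receptors are described first. TNFRSF17 lies on chromosome 16 at 11965210 to 11968068 on the plus strand (GRCh38.p14, RefSeq). It had 911, 1047 and 999 reads with sh68 and 406, 385 and 317 with sh72, against 326, 302 and 347 with shSCR. As CPM these were 28, 29.8 and 28.4 with sh68, 11.8, 12.2 and 10.4 with sh72, and 10.1, 10.5 and 11.1 with shSCR. The sh68 libraries were all above the others without overlap, and the sh72 libraries overlapped the shSCR libraries. The mean was 28.7 ± 0.98 CPM with sh68 and 11.5 ± 0.94 with sh72, against 10.5 ± 0.50 with shSCR (SD, n = 3 each).

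The log2 fold change of TNFRSF17 with sh68 was 1.45 ± 0.069 (95% interval 1.30 to 1.59, edgeR adjusted p = 1.65e-14). With sh72 it was 0.12 ± 0.077 (95% interval -0.035 to 0.28, edgeR adjusted p = 0.189). That interval bounds the sh72 change well below the sh68 one, and sh72 minus sh68 was -1.32 ± 0.068 (edgeR adjusted p = 6.37e-14). Without sh72 replicate 3, the lowest of its group, the sh72 change was called (0.21, edgeR adjusted p = 0.0352). The mean of both shRNAs, 0.79 ± 0.065 (edgeR adjusted p = 4.66e-10), therefore averaged unlike values, and with the 6 LSD1 shRNA libraries fitted as 1 group it was 0.93 with an adjusted p of 0.11. KDM1A was left at a similar level by both shRNAs, slightly lower with sh72 (sh72 minus sh68 -0.23 ± 0.061, edgeR adjusted p = 0.00261). In RefSeq the gene NPIPB2 spans TNFRSF17, and in GENCODE 29 no gene shared exon bases with it. SNX29, a sorting nexin gene that begins 8666 bases beyond it, rose with sh68 (0.21 ± 0.038) and had -0.071 ± 0.038 with sh72.

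TNFRSF13C lies on chromosome 22 at 41922032 to 41926806 on the minus strand. It had 395, 411 and 405 reads with sh68 and 396, 417 and 454 with sh72, against 737, 652 and 763 with shSCR. As CPM these were 12.1, 11.7 and 11.5 with sh68, 11.5, 13.2 and 14.9 with sh72, and 22.8, 22.6 and 24.3 with shSCR. No library with an LSD1 shRNA reached the lowest shSCR library. The level left was 50.7% of shSCR with sh68 and 56.8% with sh72.

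TNFRSF13C had a log2 fold change of -0.98 ± 0.076 with sh68 (edgeR adjusted p = 1.34e-10) and -0.82 ± 0.076 with sh72 (edgeR adjusted p = 3.45e-09). The difference of sh72 minus sh68 was 0.16 ± 0.081, with a 95% interval from -0.0062 to 0.33 and an adjusted p of 0.095. It was called without sh72 replicate 1 (0.25, edgeR adjusted p = 0.00816). The decrease with each shRNA was called under all 18 alternatives, with log2 fold changes from -0.99 to -0.94 for sh68 and from -0.90 to -0.73 for sh72. The exons of TNFRSF13C share 76 bases, 1.93% of its exon length, with the microRNA gene MIR378I. CENPM, a centromere protein gene whose nearest end is 390 bases away, rose with both shRNAs (0.18 ± 0.055 and 0.36 ± 0.055 with sh68 and sh72, edgeR adjusted p = 0.00614 and 6.97e-06).

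Markers of B cells, on which the BAFF receptor sits, are given beside it. Of the 6 B-cell markers, 2 were higher, 1 lower and 3 not called with sh68, and all 6 were lower with sh72. The shares over all tested genes were 27.4% higher and 28.1% lower with sh68, and 26.3% lower with sh72. CD79A, a signalling chain of the B-cell receptor, had -0.12 ± 0.050 with sh68 and fell with sh72 (-1.17 ± 0.052). PAX5, the transcription factor of B-cell identity, rose slightly with sh68 (0.13 ± 0.039) and fell with sh72 (-1.04 ± 0.040). The median of the list was -0.051 with sh68 and -0.98 with sh72, where all tested genes had -0.0082 and -0.011. TNFRSF13C was thus lower with both shRNAs while these markers were lower as a whole with sh72, and their part in the result was not tested.

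TNFRSF13B lies on chromosome 17 at 16939081 to 16972118 on the minus strand and was close to the limit of detection. It had 13, 5 and 10 reads with sh68 and 7, 4 and 1 with sh72, against 5, 6 and 3 with shSCR, and it did not pass the filter. The groups overlapped, with means of 0.275 ± 0.129 CPM with sh68 and 0.121 ± 0.086 with sh72, against 0.153 ± 0.056 with shSCR (SD, n = 3 each). A two-sided exact permutation test gave p = 0.3 for sh68 and p = 0.6 for sh72, where 3 libraries against 3 can give no p under 0.1. With both shRNAs together (n = 6 against n = 3) the exact permutation p was 0.595, with 0.0119 the smallest possible. Fitted without the filter, the log2 fold change was 0.83 ± 0.55 with sh68 (edgeR adjusted p = 0.276) and -0.27 ± 0.64 with sh72 (edgeR adjusted p = 0.825). With these few reads no statement on TACI transcript can be made in either direction, and 112 of its exon bases (7.47%) are shared with the pseudogene TBC1D27P.

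The ligands had lower counts than BCMA and the BAFF receptor. TNFSF13B, which encodes BAFF, lies on chromosome 13 at 108269629 to 108308484 on the plus strand. A stretch at its 5' end is shown because it holds the 1 match, in either of its 2 promoter windows in RefSeq (250 bases before to 50 after a start), to the core of the interferon-stimulated response element (GAAA, any 2 bases, GAAA), a motif bound by interferon regulatory factors. The capitals mark the match, at 18 bases after the first annotated start and 71 before the second, and the coordinates are chr13:108269637-108269666, plus strand, GRCh38.p14.
TNFSF13B: tacaaaaactGAAAGTGAAAtgaggaagac
Searched on both strands, this motif is in 3.57% of the 35116 RefSeq promoter windows of 300 bases, and the match is a description of the sequence and not of binding.

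TNFSF13B had 22, 20 and 27 reads with sh68 and 24, 23 and 28 with sh72, against 41, 34 and 50 with shSCR. As CPM these were 0.676, 0.570 and 0.767 with sh68, 0.700, 0.727 and 0.918 with sh72, and 1.27, 1.18 and 1.59 with shSCR. All 6 libraries with an LSD1 shRNA were below the lowest shSCR library. The log2 fold change was -1.0 ± 0.23 with sh68 (edgeR adjusted p = 0.000777) and -0.79 ± 0.23 with sh72 (edgeR adjusted p = 0.00581). The difference of sh72 minus sh68 was 0.21 ± 0.26, with a 95% interval from -0.32 to 0.74 and an adjusted p of 0.5. Differences between the shRNAs within that interval remain compatible with these counts. The decrease was called under all 18 alternatives, with adjusted p up to 0.00902 for sh68 and 0.0469 for sh72.

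BAFF is made mostly by myeloid cells in the body. Of the 10 markers of monocytes and dendritic cells listed, 7 were in the table and none passed the filter on low counts. Their summed level was 0.737 to 0.823 CPM in sh68 libraries and 0.583 to 0.951 in sh72 libraries, against 0.510 to 0.680 in shSCR libraries, and none of the 7 was at 0 in all sh68 libraries, 1 in all sh72 libraries and 1 in all shSCR libraries. These sums rest on 16 to 29 reads per library, and their part in the TNFSF13B result was not tested. T-cell and natural killer cell markers had sums of 4.94 to 5.68 and 11.1 to 12.1 CPM with sh68, 6.51 to 7.03 and 6.41 to 6.71 with sh72, and 4.75 to 5.66 and 4.05 to 4.47 with shSCR. The natural killer cell sum was thus higher in all libraries with an LSD1 shRNA. Most of it came from 1 marker, PRF1, with means of 10.5 CPM with sh68, 5.29 with sh72 and 3.96 with shSCR. Of the 5 natural killer cell markers that the table held, 2 were tested, and the others had at most 1 read in any library. KLRD1, a receptor subunit (2.05 ± 0.31 and 2.42 ± 0.30), and PRF1, the pore protein perforin (1.41 ± 0.096 and 0.42 ± 0.11), were called higher with both shRNAs. KLRD1 had only 7, 7 and 7 reads with shSCR and passed the filter only through libraries with an LSD1 shRNA. Its higher call is therefore not independent of the filter. The T-cell sum likewise came mostly from 1 marker. Of 6 T-cell markers 3 were tested, with 1 lower and 2 not called with sh68 and 2 higher and 1 lower with sh72. CD5, which some B cells also carry, fell with both (-1.55 ± 0.28 and -2.1 ± 0.31). Of the 2 higher with sh72, 1 had only 4, 11 and 14 reads there, against 2, 2 and 1 with shSCR. Beside these counts, 55.5% and 51% of all tested genes were called with sh68 and sh72. The stromal sum was 1.5 to 1.82 CPM with sh68 and 1.31 to 3.44 with sh72, against 0.433 to 0.589 with shSCR. Its 1 tested marker, the collagen gene COL1A1, rose with both (1.82 ± 0.33 and 2.33 ± 0.31). The highest sum was that of sh72 replicate 2, where COL1A1 had 84 reads, against 54 and 36 in the other sh72 libraries. In that library an untested collagen gene of the list had 14 reads, against 0 in every other library. The part of these markers in the members' results was not tested.

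TNFSF13, which encodes APRIL, lies on chromosome 17 at 7558282 to 7561601 on the plus strand. Its upstream sequence is shown because 1 of its 2 promoter windows holds matches both to a kappaB motif (GGGA, any 4 bases, CC), the site of the NF-kappaB factors that the receptors activate, and to AAATCA, the core of the site of the LSD1 partner GFI1. The capitals mark AAATCA first, at 210 bases before the annotated start, and the kappaB match second, at 141 bases before it. The coordinates are chr17:7558062-7558160, plus strand, GRCh38.p14, and GENCODE 29 places a transcript of the opposite strand over this stretch. In RefSeq the stretch also lies within the gene TNFSF12-TNFSF13 (7549058 to 7561601), which is described below.
TNFSF13: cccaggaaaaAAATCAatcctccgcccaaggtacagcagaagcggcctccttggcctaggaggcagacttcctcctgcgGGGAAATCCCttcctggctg
On either strand the kappaB motif is in 25.6% and AAATCA in 13.2% of the promoter windows, so neither is rare. The windows of TNFSF13B held neither of these motifs, and those of TNFSF13 did not hold the interferon core. The single window of TNFRSF13B, the TACI gene, also held both, with 2 matches to the kappaB motif and 1 to AAATCA, so the pair is not particular to TNFSF13. No windows of TNFRSF17 and TNFRSF13C were searched.

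TNFSF13 had 126, 127 and 112 reads with sh68 and 112, 73 and 86 with sh72, against 75, 79 and 67 with shSCR. As CPM these were 3.87, 3.62 and 3.18 with sh68, 3.27, 2.31 and 2.82 with sh72, and 2.32, 2.74 and 2.14 with shSCR. The sh68 libraries were above all shSCR libraries, and the sh72 libraries overlapped both other groups. The log2 fold change was 0.57 ± 0.15 with sh68 (edgeR adjusted p = 0.00275) and 0.23 ± 0.16 with sh72 (95% interval -0.099 to 0.56, edgeR adjusted p = 0.238). The difference of sh72 minus sh68 was -0.34 ± 0.15, with a 95% interval from -0.64 to -0.035 and an adjusted p of 0.0533, and it was called under 4 of 18 alternatives, among them those without sh68 replicate 3 (-0.41) and without sh72 replicate 1 (-0.47). The mean of both shRNAs was 0.40 ± 0.14 (edgeR adjusted p = 0.017), and this call was lost without shSCR replicate 1 (adjusted p = 0.059), without shSCR replicate 3 (adjusted p = 0.0897) and with the shRNAs as 1 group (adjusted p = 0.122).

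The APRIL count may hold reads of a readthrough transcript. The exons of TNFSF13 share 1263 bases (55.5%) with TNFSF12-TNFSF13, which runs from the gene of the ligand TWEAK into TNFSF13 on the same strand. TNFSF12 itself had 4, 4 and 4 reads with sh68 and 2, 0 and 0 with sh72, against 4, 3 and 0 with shSCR. The part of readthrough reads in the TNFSF13 result was not tested. SENP3, a SUMO protease gene that begins 318 bases beyond TNFSF13, had 0.088 ± 0.082 with sh68 and 0.17 ± 0.082 with sh72 and was not called (edgeR adjusted p = 0.377 and 0.0902).

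**Figure D2:**
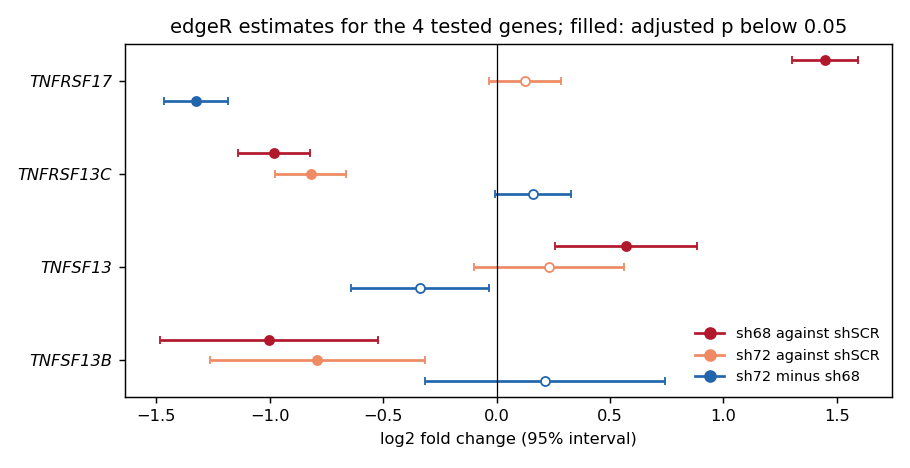
Log2 fold changes of the 4 tested genes with 95% intervals from the edgeR fit, for sh68 against shSCR, sh72 against shSCR and sh72 minus sh68; filled points have an adjusted p below 0.05. TNFRSF13C and TNFSF13B lie below 0 with both shRNAs, and TNFRSF17 has 1.45 with sh68, 0.12 with sh72 and -1.32 for the difference.

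Per kilobase of exon in GENCODE 29, the order of the 5 genes by mean was the same in every group. With sh68 it ran from TNFRSF17 (28.9 CPM per kilobase) through TNFRSF13C (2.99), TNFSF13 (1.56) and TNFSF13B (0.251) to TNFRSF13B (0.184). With sh72 these levels were 11.5, 3.35, 1.23, 0.293 and 0.081 CPM per kilobase, and with shSCR they were 10.6, 5.89, 1.05, 0.504 and 0.102. Neighbours in this order did not overlap between single libraries, except TNFSF13B and TNFRSF13B with sh68. TNFRSF17 was above 87.4% of the 18927 genes with a length with sh68 and above 72.3% with sh72, against 70.5% with shSCR. TNFRSF13C was above 54.5% and 56.2% of them with sh68 and sh72, against 61.8% with shSCR.

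Within a library, the ratio of 2 genes per kilobase does not depend on the scaling between libraries. The ratio of TNFRSF17 to TNFRSF13C was 9.15, 10.1 and 9.78 with sh68 and 4.07, 3.66 and 2.77 with sh72, against 1.76, 1.84 and 1.81 with shSCR. The 3 groups did not overlap. With both shRNAs the mean log2 ratio was 2.53 ± 0.83 (SD, n = 6), against 0.85 ± 0.034 with shSCR (SD, n = 3). The difference was 1.68 or 3.21-fold (two-sided exact permutation p = 0.0238, smallest possible 0.0119). The 6 libraries are 2 shRNAs with 3 libraries each, so the SD of 0.83 includes the gap between sh68 and sh72. This test, like that of the ligand ratio below, treats the 6 as exchangeable and does not weigh the spread between shRNAs. The fold was 5.37 with sh68 and 1.92 with sh72, each with an exact permutation p of 0.1, the smallest that 3 against 3 allows. Without any one sh68 library the difference for both shRNAs was 1.52 to 1.55 and the exact permutation p 0.0536.

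The ratio of TNFSF13B to TNFSF13 was 0.152, 0.137 and 0.208 with sh68 and 0.186, 0.272 and 0.281 with sh72, against 0.468, 0.370 and 0.638 with shSCR. All 6 libraries with an LSD1 shRNA were below the shSCR libraries, and sh68 and sh72 overlapped. The difference of both shRNAs from shSCR was -1.27 on the log2 scale (0.414-fold), and a two-sided exact permutation test gave p = 0.0119, the smallest that 6 against 3 can give. The difference of sh72 minus sh68 was 0.57 with an exact permutation p of 0.2. For each shRNA alone the difference from shSCR was -1.56 with sh68 and -0.99 with sh72, each with an exact permutation p of 0.1, the smallest that 3 against 3 allows. These ratios are of transcripts and say nothing of protein, and they reuse the counts tested above.

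**Figure D3:**
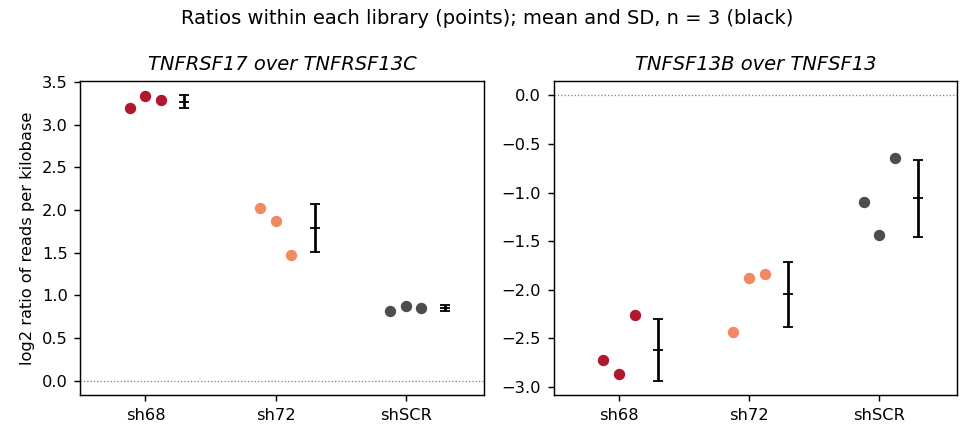
Log2 ratio of reads per kilobase within each of the 9 libraries, for TNFRSF17 over TNFRSF13C (left) and TNFSF13B over TNFSF13 (right), with the mean and SD of each group of 3. The receptor ratio is highest with sh68, with sh72 between sh68 and shSCR, and the ligand ratio is lower in all 6 LSD1 shRNA libraries than in the shSCR libraries.

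Among the 16 signal transducers below the receptors, 6 were higher, 5 lower and 5 not called with sh68, and 7 were higher, 2 lower and 7 not called with sh72. Of all tested genes, 27.4% were called higher and 28.1% lower with sh68, and 24.7% and 26.3% with sh72. The medians were -0.057 and 0.064, against -0.0082 and -0.011 for all tested genes. RELB, the partner of processed NFKB2, rose with both (0.62 ± 0.064 and 0.33 ± 0.065 with sh68 and sh72). TRAF3, the adaptor that holds NIK in check, rose with both (0.33 ± 0.051 and 0.19 ± 0.052), as did BIRC3 (0.46 ± 0.044 and 0.16 ± 0.044), a ubiquitin ligase of the same complex, and CHUK (0.31 ± 0.046 and 0.21 ± 0.046), the kinase IKK-alpha that acts on NFKB2. RELA, the main subunit of the canonical pathway, fell with both (-0.39 ± 0.045 and -0.24 ± 0.045).

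NFKB2 moved in opposite directions, lower with sh68 (-0.20 ± 0.066, edgeR adjusted p = 0.0116) and higher with sh72 (0.32 ± 0.064, edgeR adjusted p = 0.000188), with sh72 minus sh68 of 0.52 ± 0.064. MAP3K14, the kinase NIK, fell with sh68 (-0.17 ± 0.065) and had -0.13 ± 0.066 with sh72 without a call. TRAF1, an adaptor that is itself an NF-kappaB target, had 28.9, 23.8 and 28.6 CPM with sh68 and 11.3, 14.4 and 14.4 with sh72, against 12.8, 13.8 and 14.5 with shSCR. It rose with sh68 (0.98 ± 0.087) and had -0.040 ± 0.095 with sh72, so that its sh68 libraries stood apart from the rest like those of TNFRSF17. TRAF5 fell with sh68 (-0.33 ± 0.049) and had -0.095 ± 0.049 with sh72. CAMLG, the binding partner of TACI, had -0.059 ± 0.050 with sh68 and rose slightly with sh72 (0.13 ± 0.050, edgeR adjusted p = 0.0285).

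Of the 13 proteases and proteoglycans that act on these receptors and ligands, 12 were tested. With sh68 4 were higher, 5 lower and 3 not called, and with sh72 1 was higher, 9 lower and 2 not called. The medians were -0.054 and -0.38, and 28.1% and 26.3% of all tested genes were called lower. Subunits of gamma-secretase, the protease that sheds BCMA, were among those lower with both shRNAs. PSEN2, a catalytic subunit, had 0.491, 0.342 and 0.653 CPM with sh68 and 0.525, 0.411 and 0.623 with sh72, against 1.18, 1.84 and 2.04 with shSCR, without overlap (-1.75 ± 0.27 and -1.69 ± 0.27). These levels rest on 16, 12 and 23 reads with sh68, 18, 13 and 19 with sh72, and 38, 53 and 64 with shSCR. They are far below those of the other subunits named here. The fall was smaller for APH1A (-0.39 ± 0.040 and -0.34 ± 0.040), APH1B (-0.14 ± 0.050 and -0.53 ± 0.051) and PSENEN (-0.21 ± 0.057 and -0.33 ± 0.058), which are needed for its assembly. NCSTN, a further subunit, named after its values were seen, had -0.038 ± 0.042 and -0.10 ± 0.043 and was not called.

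The other proteases and the syndecans differed between the shRNAs. ADAM10, the sheddase of TACI, rose slightly with sh68 (0.16 ± 0.038) and fell with sh72 (-0.16 ± 0.038). FURIN, which releases the ligands, had -0.071 ± 0.11 with sh68 and fell with sh72 (-0.84 ± 0.12). SDC1, the plasma cell proteoglycan CD138 that binds APRIL, had 3.90, 3.42 and 4.29 CPM with sh68 and 0.787, 1.04 and 0.820 with sh72, against 1.55, 1.90 and 1.21 with shSCR. The 3 groups of SDC1 did not overlap, and it rose with sh68 (1.32 ± 0.17) and fell with sh72 (-0.81 ± 0.22). SDC4 rose with sh68 (1.66 ± 0.25) and had -0.29 ± 0.33 with sh72, and SDC3 had 0.14 ± 0.11 with sh68 and fell with sh72 (-0.94 ± 0.12).

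Among 6 survival genes downstream of the receptors, 3 were higher, 2 lower and 1 not called with sh68, and 3 were lower and 3 not called with sh72, where 55.5% and 51% of all tested genes were called with sh68 and sh72. MCL1, the survival factor that BCMA signalling sustains in plasma cells, fell with both (-0.27 ± 0.036 and -0.34 ± 0.036 with sh68 and sh72). BCL2, the antiapoptotic protein, rose with sh68 (0.33 ± 0.036) and had -0.076 ± 0.036 with sh72. BCL2L11, the death-promoting BIM, and PIM2, a survival kinase induced by BAFF, rose with sh68 (0.19 ± 0.036 and 0.36 ± 0.047) and fell with sh72 (-0.47 ± 0.037 and -0.21 ± 0.048). The medians of the list were 0.0041 with sh68 and -0.14 with sh72.

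**Figure D4:**
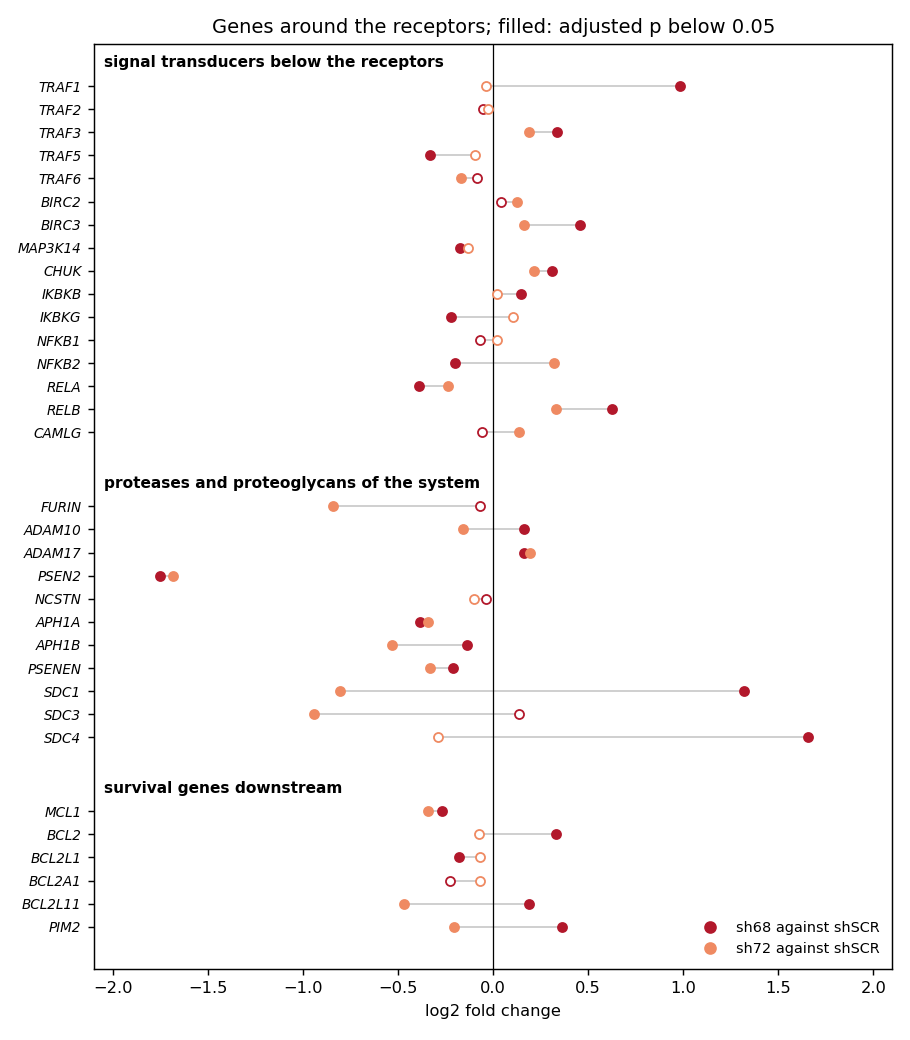
Log2 fold changes with sh68 and with sh72, each against shSCR, for tested signal transducers, proteases and proteoglycans, and survival genes, with a grey line joining the 2 values of a gene; filled points have an adjusted p below 0.05. RELB, TRAF3, BIRC3 and CHUK lie above 0 and PSEN2, APH1A, APH1B, PSENEN, RELA and MCL1 below 0 with both shRNAs, and SDC1 has 1.32 and -0.81.

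Of 26 other genes of the receptor superfamily listed, 13 were tested, with 4 higher, 5 lower and 4 not called with sh68, and 2 higher, 7 lower and 4 not called with sh72. Over all tested genes 55.5% were called with sh68 and 51% with sh72. CD40, the receptor for T-cell help, fell with both (-0.87 ± 0.048 and -0.46 ± 0.048 with sh68 and sh72), as did TNFRSF10B, a death receptor for TRAIL (-0.29 ± 0.049 and -0.83 ± 0.050). TNFRSF21, death receptor 6, rose with sh68 (2.41 ± 0.13) and fell with sh72 (-0.57 ± 0.19, edgeR adjusted p = 0.0128), and TNFRSF1A, a TNF receptor, had -0.19 ± 0.15 with sh68 and fell with sh72 (-1.39 ± 0.18). CD27, a marker of memory B cells, had 0.066 ± 0.048 with sh68 and rose slightly with sh72 (0.16 ± 0.048). The medians were -0.19 with sh68 and -0.24 with sh72.

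Among the other ligands of the superfamily, 7 were tested, with 2 higher, 3 lower and 2 not called with sh68, and 3 lower and 4 not called with sh72, beside shares of 55.5% and 51% called over all tested genes. TNFSF15, the ligand TL1A, fell with both (-0.74 ± 0.075 and -0.77 ± 0.076). TNFSF8, the CD30 ligand, rose with sh68 (1.08 ± 0.046) and had 0.0032 ± 0.048 with sh72, and TNFSF4, the OX40 ligand, rose with sh68 (0.81 ± 0.088) and fell with sh72 (-0.33 ± 0.098). The medians of the list were -0.22 and -0.15.

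Since BCMA marks the plasma cell stage, plasma cell genes are given beside it. Of 16 listed, 14 were tested, with 7 higher and 7 not called with sh68, and 6 higher, 2 lower and 6 not called with sh72. Of all tested genes, 27.4% and 24.7% were called higher with sh68 and sh72, and 26.3% were called lower with sh72. The medians of the list were 0.25 and 0.20. SDC1, 1 of the 2 lower with sh72 (-0.81 ± 0.22), was higher with sh68 (1.32 ± 0.17). XBP1, which drives the expansion of the secretory pathway, had 83.2, 78.0 and 80.5 CPM with sh68 and 65.6, 58.2 and 64.5 with sh72, against 42.0, 41.4 and 40.0 with shSCR, and it rose with both (0.97 ± 0.050 and 0.61 ± 0.051). JCHAIN, the joining chain of secreted antibody (0.71 ± 0.044 and 0.62 ± 0.044), and MZB1, a chaperone of antibody assembly (0.40 ± 0.042 and 0.64 ± 0.042), also rose with both. TNFRSF17 was not called with sh72, where these 3 genes were.

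IRF4 and PRDM1, regulators of the plasma cell programme, had few reads. IRF4 had 34, 23 and 55 reads with sh68 and 15, 12 and 8 with sh72, against 12, 8 and 8 with shSCR. It rose with sh68 (1.83 ± 0.35, edgeR adjusted p = 8.75e-05) and had 0.26 ± 0.43 with sh72 without a call, so its sh68 libraries stood above the others, as those of TNFRSF17 did. PRDM1, which encodes BLIMP-1, had 13, 8 and 12 reads with sh68 and 13, 13 and 9 with sh72, against 9, 6 and 10 with shSCR. Its log2 fold changes were 0.25 ± 0.38 and 0.42 ± 0.38, and neither was called (edgeR adjusted p = 0.606 and 0.371). ELL2, an elongation factor of antibody secretion, had 0.18 ± 0.15 with sh68 and rose with sh72 (1.35 ± 0.13), and SLAMF7, a plasma cell surface receptor, had 0.99 ± 0.46 with sh68 and rose with sh72 (1.55 ± 0.43), where its shSCR libraries held 2, 16 and 4 reads.

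The genes whose profiles were most like those of the tested members were found by the root mean square distance between log2 CPM profiles over the 9 libraries, each less its shSCR mean, among 10966 genes with an average log2 CPM of at least 1 (10967 for TNFSF13B). For TNFRSF17 these were SERINC5 (distance 0.130), NCEH1 (0.141), TP53I11 (0.143) and C3orf52 (0.143). For TNFRSF13C they were NAB2 (0.0985), RALB (0.103), ID2 (0.115) and KDM7A (0.119), and for TNFSF13 they were DCLRE1B (0.117), RAPGEF1 (0.121), IL17D (0.125) and SRSF8 (0.129). For TNFSF13B the likest gene was the BAFF receptor gene TNFRSF13C (0.140), followed by LINC00877 (0.151), MEX3A (0.161) and SERPINB6 (0.166). TNFSF13B was under the limit on level, so it was not a candidate for the other members. The SD of the members within groups was 0.0843 for TNFRSF17, 0.113 for TNFRSF13C, 0.193 for TNFSF13 and 0.204 for TNFSF13B on the same scale. All distances given for TNFSF13 and TNFSF13B were below the SD of that member, so the order of these genes carries little weight. The likeness is given as a description.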

How the data were processed

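The deposited values are raw counts of reads per gene symbol in 9 libraries of polyadenylated RNA. Per the submitters' processing notes, the tools were featureCounts 1.5.2, STAR 2.5.2 and CASAVA 1.8.2 and the build hg38. Whether strand was used in counting is unknown, so reads of overlapping exons cannot be assigned with certainty. All columns of samples were used. Counts were filtered with filterByExpr (minimum count 10), scaled by TMM and fitted with edgeR 4.0.16 in R 4.3.3, 1 term per shRNA and 15725 genes (common BCV 0.0394). The lowest Pearson r within a group was 0.995. SEs were derived from the F statistic. The fit was tested on simulated data. Ratios used 0.5 reads as a pseudocount and GENCODE 29 exon lengths. Positions and promoter windows are from RefSeq, which had 132 of the list symbols.

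The members and the 12 gene lists were chosen with earlier results of these data known. Named are the 5 members, KDM1A, neighbours, a set of pathway genes fixed by name, and up to 6 called genes of a list with the largest change. Alternatives were RLE scaling, library size, no filter, 1 CPM in 3 libraries, DESeq2 1.42.0, limma-voom (limma 3.58.1), a robust fit, the groups compared alone, the replicate block and each library left out. Both LSD1 shRNAs as 1 group was added after seeing the data. P-values weigh differences between groups against the spread between these libraries. The spread between cell lines or between further shRNAs is outside them. A few genes that the rule took are not reported here.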

Additional observations from a re-analysis of the deposited data

Results flagged for a closer look

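The effects of the 2 shRNAs differed by the test of sh72 minus sh68 in the same edgeR fit for the genes given here, with log2 values in parentheses, where 56.2% of all tested genes were called in that contrast. Of the 4 tested members TNFRSF17 (-1.32) was called, and the targeted gene KDM1A differed slightly (-0.23).

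Among signal transducers, the values were negative, lower with sh72, for TRAF1 (-1.02), RELB (-0.29), BIRC3 (-0.30) and TRAF3 (-0.15), and positive for RELA (0.15), NFKB2 (0.52), TRAF5 (0.24) and CAMLG (0.19). Among proteases and proteoglycans they were negative for APH1B (-0.40), FURIN (-0.77), ADAM10 (-0.32), SDC1 (-2.13), SDC3 (-1.08) and SDC4 (-1.95). The survival genes BCL2 (-0.41), BCL2L11 (-0.66) and PIM2 (-0.57) were lower with sh72. In the wider superfamily the values were negative for TNFRSF21 (-2.98), TNFRSF1A (-1.20), TNFRSF10B (-0.53), TNFSF8 (-1.07) and TNFSF4 (-1.14), and positive for CD40 (0.42).

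Of the plasma cell genes, IRF4 (-1.58) and XBP1 (-0.36) were lower with sh72, and MZB1 (0.24) and ELL2 (1.17) higher. Of the B-cell markers, CD79A (-1.05), CD79B (-0.79), MS4A1 (-0.41), PAX5 (-1.17) and CD22 (-0.29) were lower with sh72. Of the neighbouring genes with values in the text, CENPM (0.17) and SNX29 (-0.28) differed too. Among the natural killer cell markers PRF1 (-0.99) was lower with sh72 than with sh68. The stromal marker COL1A1 had 2.65 CPM in sh72 replicate 2, far above the other 5 LSD1 shRNA libraries by Dixon's criterion, which chance meets in about 1 in 20 groups; as the 6 libraries are 2 shRNA groups, a difference between these groups can hide a library that stands apart within 1 of them.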

How the results depend on the processing

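In the fit of sh68 against shSCR, the calls of all 4 tested genes held under each of 18 alternatives. RLE scaling, library size alone, no filter, DESeq2, limma-voom, a robust fit and the groups compared alone ended or added no call of a tested member. With the LSD1 shRNAs as 1 group of 6, the mean was 0.93 for TNFRSF17 and 0.41 for TNFSF13, neither called, and 2 members, 20 of the 67 tested genes of the 6 lists of the pathway and family and 3581 genes in all were called, against 4, 43 and 8226. For sh72 minus sh68, TNFSF13 was called with 1 CPM in 3 libraries (-0.35) and with the replicate block (-0.34), so that 2 members were called in each, against 1. The block changed no other call of a member, and same-numbered libraries had residual correlations from -0.0358 to 0.0724, so the numbers were not taken to pair libraries. Leaving out each library in turn gave ranges of 0.33 to 0.51 for TNFSF13 on the mean, 0.098 to 0.21 for TNFRSF17 with sh72, and, for sh72 minus sh68, 0.076 to 0.25 for TNFRSF13C, -0.47 to -0.21 for TNFSF13 and 1 to 3 members called. It gave 1.52 to 1.90 for the log2 receptor ratio. The cause of these changes was not tested. Depth limits TNFRSF13B, with at most 13 reads in a library, and TNFSF13B, with 20 to 50.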
